A study of Mus musculus with 3 samples.

Results

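The comparison was between the T2 and T1 libraries, both made from RAW264.7 cells given RANKL and thyroid stimulating hormone (TSH), over the protein-coding genes whose mean over the 3 libraries of the study reached 5 FPKM. FPKM counts fragments per kilobase of a gene, relative to the depth of the library. Of 54532 genes in the deposited table, 22046 were protein-coding and 6746 had such a mean. RAW264.7 is a wild-type mouse macrophage line. The cells received RANKL for 3 days. They were then harvested with no TSH (0 h, RANKL alone) or were given TSH at 10 mU/mL, either for 2 h or for 24 h, with 1 library for each condition. Both libraries compared here therefore shared the RANKL treatment and the TSH dose, and differed in the hours of TSH. The column names do not say which of T1 and T2 is the 2 h library and which the 24 h library, so no direction in time is given. The library of RANKL alone entered only the filter on level and is given beside the genes named.

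RANKL is the cytokine that drives macrophage precursors to become osteoclasts, the multinucleated cells that dissolve bone with acid and proteases. It acts through its receptor RANK, the adaptor TRAF6 and the transcription factors NFATc1, c-Fos and MITF. TSH is the pituitary hormone of the thyroid, and it acts through a receptor coupled to G proteins. Of the stress pathways described below, the integrated stress response slows translation through eIF2α and raises the transcription factor ATF4, which in turn drives genes of amino acid supply and its own feedback regulators. The unfolded protein response of the endoplasmic reticulum (ER) drives chaperone genes through ATF6 and XBP1.

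The reads recovered came to 16809034 in T1 and 17390744 in T2, and 91.7% and 91.6% of them lay in the 6746 genes. Mitochondrial transcripts took 2.87% and 2.83% of reads. Both libraries carried the transcripts of osteoclasts, with Ctsk, the gene of the bone matrix protease cathepsin K, at 983 FPKM in T1 and 980 FPKM in T2. Acp5, the gene of tartrate-resistant acid phosphatase, was at 857 and 822 FPKM. Macrophage transcripts were present as well. Of 15 genes of macrophage identity 5 passed the filter, and the list summed to 870 FPKM in T1 and 872 FPKM in T2. Lyz2 was at 209 and 223 FPKM and Cd14 at 72.8 and 76.2 FPKM, while Maf was at 0 in every library. Of 11 osteoblast and fibroblast markers, 10 lymphocyte markers and 9 neutrophil markers, 0 passed the filter. The summed levels of those lists in T1 and T2 were 0.380 and 0.259 FPKM, 1.22 and 1.66 FPKM, and 0.195 and 0 FPKM. Col1a2, Bglap, Cd3e, Ms4a1, Ly6g and S100a9 were among those at 0 in every library. Among 9 dendritic cell markers 1 passed, Cd74, at 83.4 FPKM in T1 and 93.3 FPKM in T2, while Flt3, Ccr7, Siglech and H2-Aa were at 0. Tshr, the TSH receptor gene, had 2 reads in T1 and 0 in T2, where 3 reads in a gene of 1 kb are 0.179 and 0.171 FPKM.

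The 2 libraries differed little. Differences are of log2(FPKM + 1), T2 minus T1, a scale that understates the change of low genes. Their median over the 6746 genes was -0.0037, their SD over genes was 0.10, and 75.6% of genes lay within 0.1 of 0. A gene was counted as higher or lower by size where its difference was at least 0.3 and the exact 95% counting interval of the FPKM ratio left out 1. By that rule 29 genes (0.430%) were higher in T2 and 30 (0.445%) were lower, 59 in all (0.875%). A limit of 1.5-fold on the same scale was passed by 3 genes (0.0445%) on the higher side and 5 (0.0741%) on the lower side, and one of 2-fold by 4 genes in either direction (0.0593%). With 1 library for each hour of TSH no difference could be set against replicates, so there are no p-values, and the intervals hold counting error alone. When both libraries were rescaled to the same FPKM total, the median over genes moved to 0.03 and the counts became 45 higher and 22 lower, so that 67.2% of the genes counted were higher against 49.2% here.

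**Figure D1:**
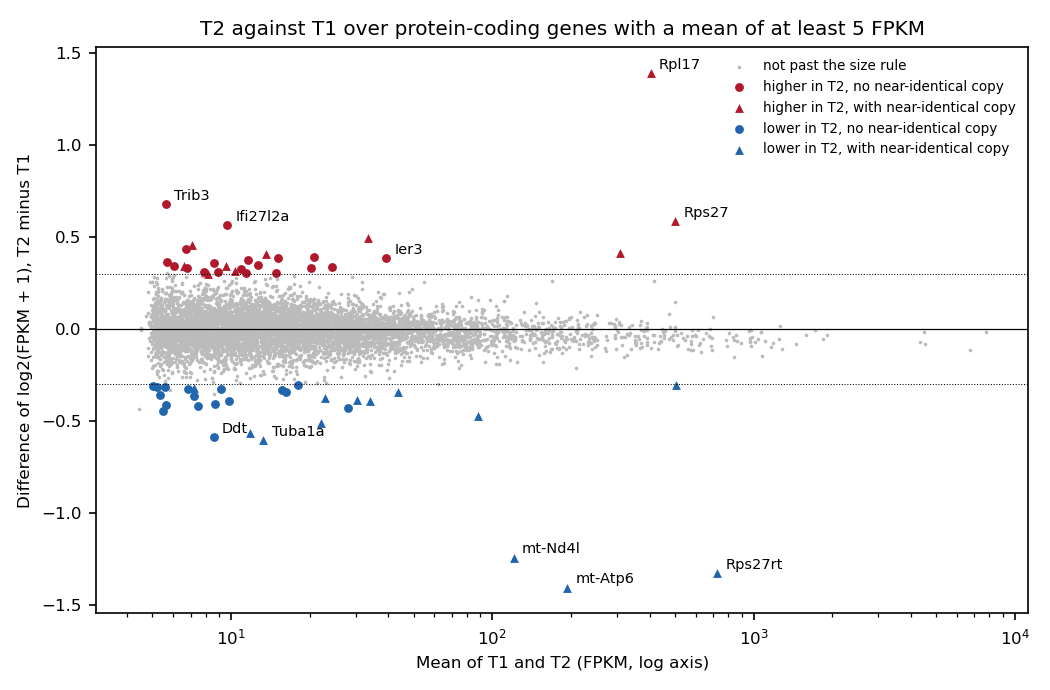
Difference of log2(FPKM + 1), T2 minus T1 (vertical), against the mean FPKM of T1 and T2 (horizontal, log axis), 1 point for each of 6746 protein-coding genes. Dotted lines stand at 0.3 and -0.3, colours mark the 29 higher and 30 lower genes, and triangles mark genes with a near-identical copy, which include the points farthest from 0, Rpl17 at 1.39 and mt-Atp6 at -1.40.

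A second, looser measure was whether the counting interval alone left out 1, whatever the size. In this sense 607 genes (9.0%) were higher beyond counting error in T2 and 816 (12.1%) were lower, 1423 in all (21.1%), while 3240 genes (48.0%) had any difference above 0 and 3506 (52.0%) one below. Well covered genes passed it at small differences: the share was 13.3% in the quintile of genes with the fewest reads and 37.1% in the quintile with the most. By direction, 146 of 1349 genes in the latter were higher and 354 lower, and in the quintile below it 150 were higher and 155 lower. The spread over genes exceeded what counting gives, with an SD of 0.14 against a median counting SD of 0.09 in the quintile with the fewest reads and 0.08 against 0.03 in that with the most. How much of that excess would also be seen between libraries of the same condition was not measured, since there was 1 of each.

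The gene lists were chosen with earlier results of these data known. Among the 37 lists with a member past the filter, the ATF4 program had the highest median. All 11 of its genes past the filter had a difference above 0, against 48.0% of all genes, with a median of 0.17 against -0.0037. Of these, 6 were higher beyond counting error (9.0% of all genes) and 0 were lower (12.1% of all genes). By the size rule 2 were higher (0.430% of all genes). Trib3 led them. It encodes a pseudokinase that is induced by ATF4 and feeds back on it. Trib3 (chromosome 2, 152337422 to 152344032, GRCm38) stood at 4.10 FPKM from 146 reads in T1 and 7.17 FPKM from 267 reads in T2, with 5.40 FPKM in RANKL alone. The T2 library was thus the highest of the 3 and T1 the lowest. Its difference was 0.68 and its ratio 1.75 (95% counting interval 1.42 to 2.16). It passed the filter through T2, since the mean of the other libraries was 4.75 FPKM.

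The promoters of Asns and Trib3 show the element that ATF4 binds with its C/EBP partners. The letters TGATGNAA were searched on both strands, from 250 bases before to 50 bases after the start of each gene (RefSeq windows, GRCm38.p6), and were present in 3 of the 11 genes, Asns, Trib3 and Nupr1. They were present in 4.51% of 27025 windows of all genes and in 2.49% of the 5416 windows of genes past the filter. Both sequences are given 5′ to 3′ on the strand of the gene, with the match in capitals. The Asns window is chr6:7693210-7693269 on the minus strand and ends 1 base before the start. The Trib3 window is chr2:152344027-152344054 on the minus strand, just after the RefSeq start, and there the match lies on the other strand, so its letters read as the reverse complement.
Asns: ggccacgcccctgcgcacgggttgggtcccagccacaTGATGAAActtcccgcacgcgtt
Trib3: gctcaggtTTACATCAgccgggcgggga
A match is a description of the sequence, and no binding was measured here.

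The other members describe both ends of the pathway. Atf4 itself, the transcription factor gene, was at 140 FPKM in T1 and 154 FPKM in T2, a ratio of 1.10 (1.06 to 1.14). Asns, which encodes asparagine synthetase, was at 77.7 and 87.7 FPKM, a ratio of 1.13 (1.08 to 1.18). Gpt2, the mitochondrial alanine aminotransferase gene, was at 8.94 and 10.7 FPKM, a ratio of 1.20 (1.09 to 1.31). All 3 were also higher in T2 than in RANKL alone, where they were at 149, 80.7 and 8.69 FPKM. For Atf4 the level in RANKL alone was nearer to T2, and for Asns and Gpt2 it was nearer to T1. Sesn2, the gene of a leucine sensor that restrains mTORC1, went from 10.1 FPKM in T1 to 12.7 FPKM in T2, a ratio of 1.26 (1.13 to 1.41), and was at 13.8 FPKM in RANKL alone. Ppp1r15a encodes GADD34, the phosphatase subunit that ends the response, and was at 9.36 and 11.5 FPKM, a ratio of 1.23 (1.09 to 1.40), with 12.1 FPKM in RANKL alone. For Sesn2 and Ppp1r15a it was therefore T1 that stood apart below the other libraries. Ddit3, Cebpg, Nupr1, Atf5 and Cebpb had differences from 0.01 to 0.17 that did not leave counting error. Ppp1r15a, Ddit3, Cebpg, Atf5 and Cebpb overlap exons of other genes, and whether strand was used in counting is not given in the sources used here.

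Of the 5 list members under the filter, Atf3, the gene of a related stress-induced factor, was at 1.38 FPKM in T1 and 2.12 FPKM in T2, a ratio of 1.53 (1.06 to 2.23). Chac1, the glutathione-degrading enzyme gene, was at 3.79 and 3.97 FPKM. Ddit4 was at 1.22 and 1.59 FPKM and Stc2 at 0.484 and 0.353 FPKM, all 3 within counting error. Vldlr had no reads in any library.

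Genes that supply amino acids, many of them known ATF4 targets, lay on the same side. Of 8 amino acid transporter genes past the filter 7 had a difference above 0 (48.0% of all genes), and 4 were higher (9.0% of all genes) and 0 lower beyond counting error; the median was 0.06. Their median of 8284.5 reads lies in the quintile of genes with the most reads. Slc3a2, the heavy chain shared by several exchangers, was at 44.5 FPKM in T1 and 51.4 FPKM in T2, and Slc1a4, a neutral amino acid carrier, at 4.80 and 5.67 FPKM. Slc38a2, the SNAT2 transporter gene, was at 98.5 and 108 FPKM, and the cationic transporter gene Slc7a1 at 32.1 and 34.1 FPKM. Slc7a5, the LAT1 light chain gene, did not differ beyond counting error, at a difference of 0.03. In the list of serine and one-carbon supply 7 of 9 were above 0, and 2 were higher and 0 lower beyond counting error. These were Cth, the cystathionine gamma-lyase gene, at 7.88 and 9.88 FPKM, and Psph, encoding the last enzyme of serine synthesis, at 14.5 and 16.6 FPKM. Aminoacyl-tRNA synthetases, which charge tRNAs, had a median of 0.01, with 3 of 18 higher and 2 lower beyond counting error.

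The chaperones of the ER lay on the opposite side. Of 19 genes of ER chaperones and folding, all past the filter, 16 had a difference below 0 (52.0% of all genes), 7 were lower beyond counting error (12.1% of all genes) and 0 were higher, with a median of -0.05. None reached 0.3. Creld2, an ER stress-inducible secreted protein gene, was at 32.5 FPKM in T1 and 28.1 FPKM in T2, a ratio of 0.866 (0.779 to 0.962). Sdf2l1, a partner of BiP, was at 51.0 and 45.2 FPKM. Calr, which encodes the lectin chaperone calreticulin, was at 285 and 262 FPKM, a ratio of 0.921 (0.899 to 0.943). Hsp90b1 (GRP94) was at 117 and 109 FPKM and Hspa5 (BiP), the main Hsp70 chaperone of the ER, at 238 and 227 FPKM, with ratios of 0.938 and 0.954. Hyou1 and Pdia3, a nucleotide exchange factor and a disulphide isomerase, had differences of -0.08 and -0.05. In RANKL alone Creld2 was at 31.7 FPKM, Calr at 292 FPKM and Hspa5 at 233 FPKM, each above T2. Dnajb9, at 0.18, Sel1l, at 0.05, and Xbp1, at 0.02, were above 0 and within counting error. With the libraries rescaled to the same FPKM total the median of the chaperones was -0.02. Hspa5, Hsp90b1, Pdia3, Calr, Sdf2l1 and Hyou1 lie in the quintile of genes with the highest level. Without rescaling, the median in that quintile was -0.02, beside -0.05 for the chaperones. In the quintile 36.4% of genes were above 0, and 359 of 1349 were lower and 109 higher beyond counting error. By reads, the list median of 4400 lies in a quintile where 150 of 1349 genes were higher and 155 lower.

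The ER stress element, to which ATF6 binds together with NF-Y, was searched in the chaperone promoters. The letters CCAAT and CCACG with 9 bases of any kind between them, searched on both strands, were present in 8 of the 17 chaperone genes with a window. They were present in 37 of 27025 windows of all genes (0.137%) and in 10 of 5416 windows of genes past the filter. Of the 11 ATF4 list genes 0 held it. Of the 8, Hspa5, Creld2, Hsp90b1 and Calr were lower beyond counting error and Canx, Dnajc3, Pdia6 and Syvn1 were not, while Sdf2l1 and Pdia3 were lower without a match. The windows below are given to show the element in both orientations, Canx (a difference of -0.03, within counting error) among them, with matches in capitals and all letters 5′ to 3′ on the strand of the gene. They are chr2:34772005-34772063 (plus), chr15:88819500-88819558 (plus), chr10:86705513-86705676 (minus), chr8:84847055-84847113 (minus) and chr11:50325780-50325838 (minus), RefSeq on GRCm38.p6.
Hspa5: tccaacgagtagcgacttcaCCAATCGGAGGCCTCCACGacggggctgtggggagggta
Creld2: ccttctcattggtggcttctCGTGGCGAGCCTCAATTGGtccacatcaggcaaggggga
Hsp90b1: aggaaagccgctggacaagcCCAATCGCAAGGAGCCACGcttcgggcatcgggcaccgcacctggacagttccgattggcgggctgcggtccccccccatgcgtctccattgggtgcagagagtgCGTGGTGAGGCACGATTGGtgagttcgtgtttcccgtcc
Calr: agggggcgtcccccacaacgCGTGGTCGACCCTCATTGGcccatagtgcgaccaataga
Canx: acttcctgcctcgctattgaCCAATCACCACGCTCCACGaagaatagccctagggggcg
The window of Hsp90b1 holds the element at both ends, once on each strand. The letters CCACG at its end can share bases with the ACGTG searched further below. In Creld2 and Calr it lies on the other strand from the gene.

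**Figure D2:**
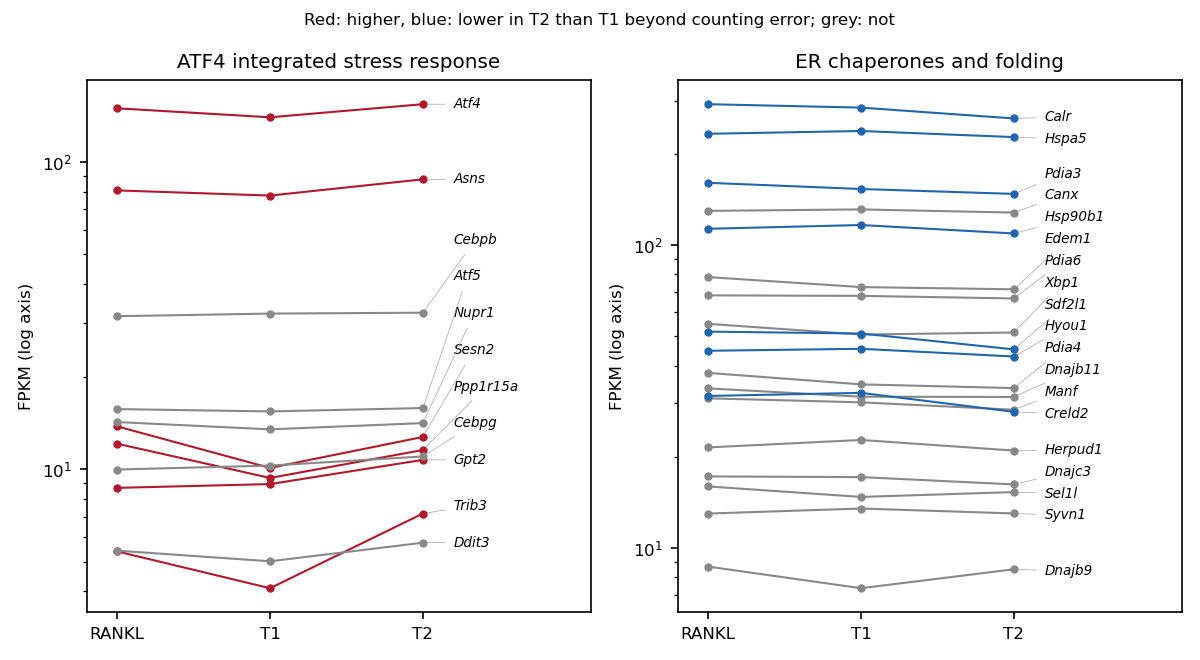
FPKM (vertical, log axis) in RANKL alone, T1 and T2 (horizontal) for the 11 ATF4 list genes and the 19 ER chaperone genes past the filter, 1 line for each gene and 1 library for each point. Red lines are higher and blue lines lower in T2 than in T1 beyond counting error, as 6 of the 11 and 7 of the 19 are, and grey lines are neither. Trib3 goes from 4.10 to 7.17 FPKM.

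The osteoclast program itself was close in both libraries, and regulators and effector genes both went either way. Of 18 genes of osteoclast signalling and transcription 13 were below 0 (52.0% of all genes), 7 were lower (12.1% of all genes) and 2 higher (9.0%) beyond counting error, and the median was -0.03, which became 0.00633 with the libraries rescaled to the same FPKM total. Nfatc1, the master transcription factor, was at 173 FPKM in T1 and 159 FPKM in T2, with 165 FPKM in RANKL alone between them, a ratio of 0.917 (0.900 to 0.935). Mitf, which acts with NFATc1 on resorption genes, was at 17.7 and 14.8 FPKM, a ratio of 0.835 (0.781 to 0.894). Jdp2, an AP-1 family factor gene needed for osteoclast formation, was at 224 and 194 FPKM, a ratio of 0.864 (0.837 to 0.892). In each of the 3 genes T1 was the highest library and T2 the lowest. Prdm1 (Blimp1), Tyrobp (the ITAM adaptor DAP12), Tnfrsf11a (RANK itself) and Spi1 (PU.1) had differences of -0.14, -0.11, -0.08 and -0.05, also beyond counting error. Traf6, the adaptor gene downstream of RANK, and Tfe3, a relative of MITF, were higher, at 0.14 and 0.13. Csf1r, the M-CSF receptor gene, was at 371 and 370 FPKM. In bulk samples such as these, fewer cells of a type and less RNA per cell cannot be told apart.

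Among 12 resorption genes past the filter 3 were lower (12.1% of all genes) and 3 higher (9.0%) beyond counting error, with a median of 0.0032. Mmp9, a matrix protease gene, was at 186 FPKM in T1 and 173 FPKM in T2, Car2, the carbonic anhydrase that supplies protons, at 322 and 304 FPKM, and Acp5 as given above, at a difference of -0.06. Ctsk had a ratio of 0.997. Plekhm1, Snx10 and Slc4a2, which serve lysosome transport and bicarbonate exchange, were higher by 0.08, 0.07 and 0.05. Calcr, the calcitonin receptor gene, was under the filter, with 27 and 22 reads. Of 9 genes of cell fusion 7 were below 0 (52.0% of all genes), 2 lower (12.1%) and 0 higher (9.0%) beyond counting error. The lower ones were Ocstamp, at 50.7 and 45.6 FPKM, and Sirpa, at a difference of -0.08. Dcstamp, the other fusion receptor gene, was at 80.3 and 78.3 FPKM, within counting error. V-ATPase subunits, the proton pump, had 6 of 14 higher and 0 lower beyond counting error, and lysosomal proteins 6 of 19 higher and 1 lower, against 9.0% and 12.1% of all genes; their medians were 0.03 and 0.02. Their median reads, 12298 and 13175, lie in the quintile with the most reads, where 146 of 1349 genes were higher and 354 lower. Podosome and actin ring genes, with median reads of 19778 in the same quintile, had 1 of 15 higher and 5 lower, against the same shares of all genes. Their median difference of -0.02 became 0.0090 with the same FPKM total.

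Other signalling lists were mixed. Of 14 immediate early genes past the filter 5 were higher (9.0% of all genes) and 4 lower (12.1%) beyond counting error. The higher ones were Ier3, an anti-apoptotic early response gene, Egr2, Zfp36, which encodes an mRNA decay factor, Klf6 and Ier5, with differences from 0.12 to 0.39. All 4 lower ones encode AP-1 subunits: Fos at -0.19, Fosl1 at -0.19, Fosl2 at -0.08 and Junb at -0.08. Fos was at 113 FPKM in T1, 99.4 FPKM in T2 and 109 FPKM in RANKL alone. Among 10 cytokine and NF-kB target genes Ccl3, a chemokine gene of macrophages and osteoclasts, was higher, at 153 FPKM in T1 and 184 FPKM in T2. Icam1 and Nfkbia, the inhibitor IκBα, were lower, at -0.17 and -0.11. Of 18 interferon-stimulated genes only Bst2 passed the filter, at 35.1 and 36.5 FPKM.

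Hypoxia and HIF targets had 9 of 11 genes above 0 (48.0% of all genes), at a median of 0.06. Beyond counting error 4 were higher (9.0% of all genes) and 0 lower (12.1%). Kdm3a, a histone demethylase gene, was at 15.9 FPKM in T1 and 19.0 FPKM in T2, Bnip3, a mitophagy receptor gene, at 13.7 and 15.9 FPKM, and Ero1l, the ER oxidase gene, at 16.0 and 18.3 FPKM. Kdm3a and Bnip3 were also above T1 in RANKL alone, at 19.2 and 17.2 FPKM. The hypoxia response core ACGTG was present in 6 of the 8 list genes with a promoter window, against 21.8% of all windows and 32.1% of those past the filter. Of the 6, Bnip3 was higher beyond counting error. Egln1, Higd1a, P4ha1, Slc2a1 and Vegfa were not, and Egln1 and Higd1a were below 0. Kdm3a and Ero1l were not among the 6. Autophagy genes had 10 of 12 above 0, 3 of them beyond counting error (Gabarapl2, Gabarap and Sqstm1), and p53 targets 7 of 8, with Mdm2 at 0.15 and Cdkn1a at 0.13. Metallothioneins and zinc transporters had 7 of 9 above 0, with Mt1 at 475 and 526 FPKM and the zinc exporter gene Slc30a1 at 0.16. In the NRF2 list 3 of 10 were higher (9.0% of all genes) and 0 lower beyond counting error, led by Hmox1, the haem oxygenase gene, at 49.9 and 59.9 FPKM. Circadian clock genes had 5 of 5 above 0, with Nr1d2 at 0.15 and Cry1 at 0.12.

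**Figure D3:**
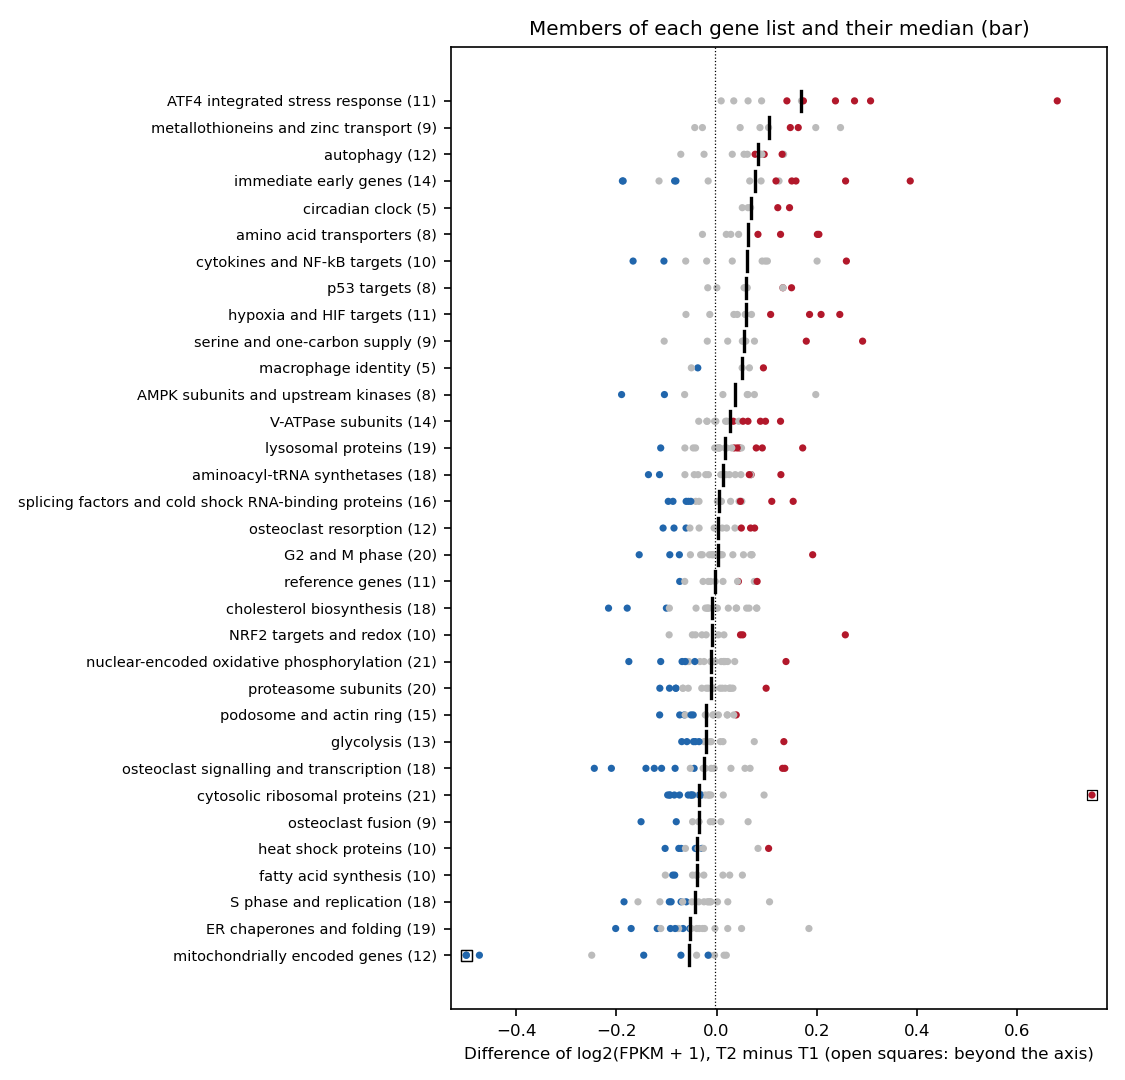
Difference of log2(FPKM + 1), T2 minus T1 (horizontal), for the genes of each list with at least 5 genes past the filter, 1 point for each gene, with the number in brackets and the list median as a bar. Red and blue points are higher and lower beyond counting error, the dotted line is the median of all 6746 genes, and open squares mark points beyond the axis. The ATF4 list has the highest median, 0.17, and the mitochondrially encoded genes the lowest, -0.06.

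Lists of the cell cycle and of metabolism differed little. S phase and replication genes had 15 of 18 below 0 (52.0% of all genes) and 5 lower, 0 higher beyond counting error, at a median of -0.04. Their median of 5939 reads lies in the quintile with the most reads, where 354 of 1349 genes were lower. G2 and M phase genes went both ways, with 11 of 20 above 0 and a median of 0.0019: Aurkb, the Aurora B kinase gene, was higher at 0.19 and Plk1, the mitotic Polo-like kinase gene, lower at -0.15. Heat shock proteins had 8 of 10 below 0, and glycolysis genes 9 of 13. Nuclear-encoded oxidative phosphorylation genes had 14 of 21 below 0 and proteasome subunits 12 of 20. The medians of the last 3 lists, -0.02, -0.01 and -0.01, turned positive with the same FPKM total. In cholesterol biosynthesis 3 of 18 were lower (12.1% of all genes) and 0 higher (9.0%) beyond counting error. Mvd, which encodes mevalonate diphosphate decarboxylase, was among the lower ones, at 32.2 FPKM in T1 and 27.6 FPKM in T2. Of 8 genes of AMPK subunits and upstream kinases, the pathway named by the study's labels, 5 were above 0, with a median of 0.04. Prkab1 (a beta subunit) and Map3k7 (TAK1) were lower, at -0.19 and -0.10, and 0 were higher beyond counting error. Prkag1, a gamma subunit, was at 5.15 FPKM in T1 and 6.06 FPKM in T2, a difference of 0.20 that did not leave counting error. Of 11 reference genes 2 were higher and 1 lower beyond counting error, with a median of -0.0026.

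The largest single differences, apart from copied genes, were in genes of modest level. The 15 largest on the higher side ran from 0.33 (Rilpl1) to 0.68 (Trib3) and came from genes with a median length of 1489 bases, against 4165.5 for all 6746 genes. Ifi27l2a, a small interferon-inducible gene, was at 7.60 FPKM from 59 reads in T1 and 11.7 FPKM from 95 reads in T2, a ratio of 1.54 (1.10 to 2.17). Ier3 was at 33.8 and 44.5 FPKM, a ratio of 1.32 (1.19 to 1.46). Gla, the lysosomal alpha-galactosidase gene, was at 13.0 and 17.3 FPKM, a ratio of 1.33 (1.21 to 1.47). In RANKL alone these 3 genes were at 10.4, 41.5 and 16.4 FPKM, nearer to T2 than to T1.

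Among the other 11, Casp4, which encodes the inflammatory caspase-11, was at 5.19 and 6.86 FPKM, Ly96, encoding the MD-2 subunit of the endotoxin receptor, at 7.42 and 9.78 FPKM, and Slc11a1, the phagosomal metal transporter gene NRAMP1, at 5.88 and 7.66 FPKM. Casp4 and Slc11a1 were slightly higher still in RANKL alone, at 7.22 and 7.68 FPKM. Selenow, a small selenoprotein gene, was at 17.9 and 23.8 FPKM and Apip, the methionine salvage enzyme gene, at 10.0 and 13.3 FPKM, with RANKL alone at 18.6 and 11.0 FPKM, nearer to T1. Ypel3, Sertad1, Tm2d3, Hcfc1r1, Ddx43 and Rilpl1 completed the 15, of which Tm2d3, Hcfc1r1, Ddx43 and Rilpl1 overlap exons of other genes.

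The 15 largest on the lower side ran from -0.31 (Tmem80) to -0.59 (Ddt). Ddt, a relative of the cytokine MIF, was at 10.5 FPKM from 136 reads in T1 and 6.64 FPKM from 90 reads in T2, a ratio of 0.633 (0.480 to 0.833). Dpm3, a subunit of the dolichol-phosphate-mannose synthase of the ER, was at 32.4 and 23.8 FPKM, a ratio of 0.736 (0.643 to 0.843), and was at 31.6 FPKM in RANKL alone. Mitochondrial proteins were among them, with Cox11, a copper chaperone of cytochrome oxidase, at 6.58 and 4.69 FPKM, Endog, the endonuclease G gene, at 11.3 and 8.37 FPKM, and Mrm1, which modifies mitochondrial ribosomal RNA, at 8.23 and 6.19 FPKM. Zfp771, Zfp777 and Zfp362 encode zinc finger proteins, and Tmem208 an ER membrane protein. Fam110a, Cacng8, Dnajc4, Dusp28, AI837181 and Tmem80 completed the list. Of the 15, 7 overlap exons of other genes: Ddt, Cacng8, Cox11, Endog, Dusp28, Tmem208 and Zfp777. Over all zinc finger genes that the authors' table assigns to the C2H2 family, 61 of 99 were above 0, with a median of 0.03, so the 3 named lay on the other side of 0 from the median of that family.

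**Figure D4:**
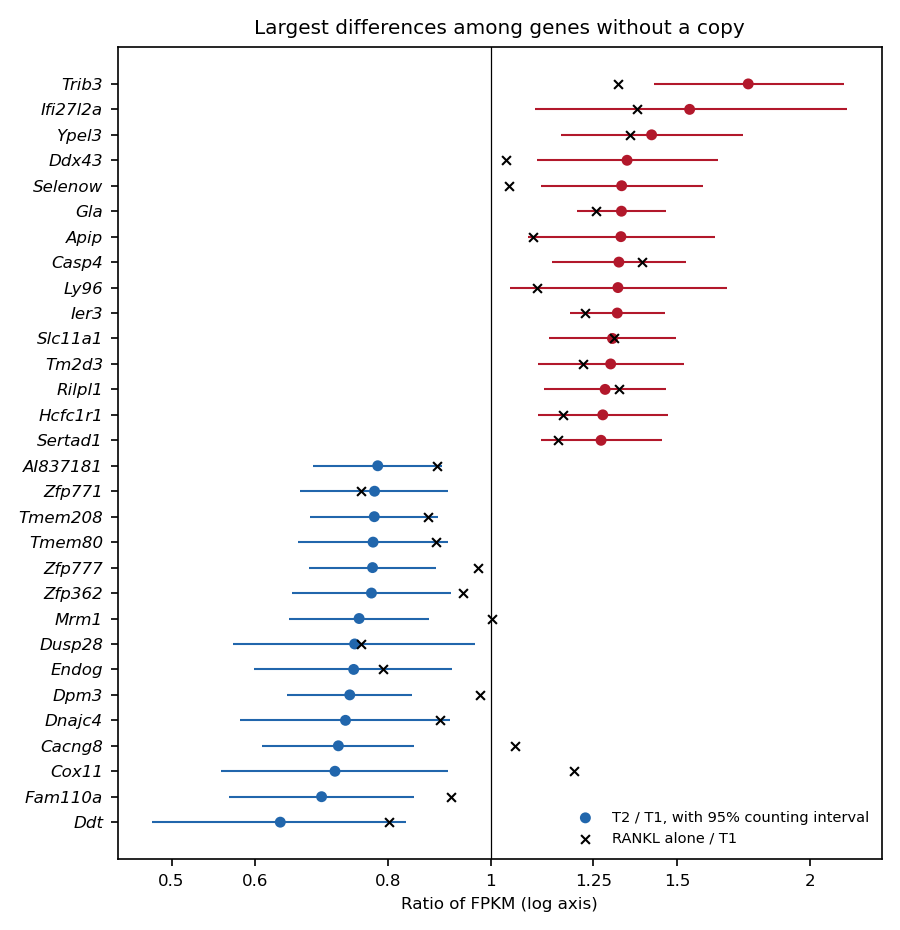
FPKM ratio of T2 to T1 (horizontal, log axis; points with their 95% counting interval) for the 15 largest higher (red) and 15 largest lower (blue) genes without a near-identical copy, with the ratio of RANKL alone to T1 as crosses. Trib3 stands farthest right at 1.75 and Ddt farthest left at 0.633.

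Beside these, the library of RANKL alone sat nearer to T2 for 14 of the 19 higher genes without a copy and nearer to T1 for 12 of the 17 lower ones. Of the genes with a copy, it was nearer to T2 for 7 of the 10 higher and also for 9 of the 13 lower ones. It lay between T1 and T2 for 13 of the 19 and 13 of the 17. The share of all genes where it lay between was not counted, so nothing is read from these numbers. Over all 6746 genes the library of RANKL alone was nearer to T2 for 49.9%. The genes just inside and outside the limit were Katnbl1 at 0.302 and Reep6 at 0.296 on the higher side and Rps27a at -0.301 and Snrpg at -0.299 on the lower side. On the filter they were Apoe, at a mean of 5.002 FPKM, and AW209491, at 4.998 FPKM. Among the genes counted, 2 higher ones, Trib3 and Ddx43, passed the filter only through their level in T2. On the lower side 1, Dusp28, passed it only through T1.

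Near-identical copies carried the most extreme values. Of the 59 genes counted 23 had such a copy, 10 higher and 13 lower, against 16.0% of all 6746 genes. Rpl17, a ribosomal protein gene, was at 222 FPKM in T1 and 585 FPKM in T2, a difference of 1.39, but the sum of reads over it and its 25 copies had a log2 ratio of -0.05. Rps27 (402 and 604 FPKM) and its copy Rps27rt (1040 and 415 FPKM) went opposite ways, by 0.59 and -1.32, and their sum stood at -0.04. Tuba1a, a tubulin gene, was at -0.60 and its sum at -0.11. For 12 of the 23 the sum over copies lay within 0.3 of 0, and for the other 11 it did not. Among the latter were the mitochondrial mt-Atp6, at 281 FPKM in T1, 106 FPKM in T2 and 75.8 FPKM in RANKL alone, whose sum stood at -1.05, and mt-Nd4l, at 170, 71.5 and 37.8 FPKM, whose sum stood at -0.88. Both also overlap other mitochondrial genes on the same strand, mt-Atp6 with mt-Atp8 and mt-Co3, and mt-Nd4l with mt-Nd4. The sums do not take in these overlaps, so how reads were divided between the overlapping genes stays uncertain. Of the 12 mitochondrially encoded genes past the filter 10 were below 0, with a median of -0.06, while their total share of reads was as given above. For Rps12, at 264 and 351 FPKM, and Rpl30, at 27.6 and 39.3 FPKM, the sequence shared was that of a small RNA gene listed with 0 reads, so their sums, 0.41 and 0.51, were those of the gene alone. Of 21 ribosomal protein genes 13 were lower (12.1% of all genes) and 1, Rpl17, higher (9.0%) beyond counting error. The list median was -0.03, and 20 of the 21 have copies. Their median of 44354 reads lies in the quintile with the most reads, where 354 of 1349 genes were lower.

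The differences also followed gene length, base composition and level across all genes. The median was -0.03 in the shortest quintile of genes and 0.01 in the longest, 0.01 in the quintile with the lowest GC content and -0.01 in that with the highest, and -0.02 in the quintile with the highest level, where 36.4% of genes were above 0. The shortest quintile held 20 of the 29 higher and 25 of the 30 lower genes. The 15 largest higher and 15 largest lower genes had median GC contents of 54.4% and 57.5%, against 49.7% for all. The ATF4 list had a median length of 2514 bases and a median GC content of 55.5%. With the trends removed the median of the ATF4 list was 0.18 and that of the ER chaperones -0.05. Whether these trends arose in the cells or in the libraries was not tested.

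**Figure D5:**
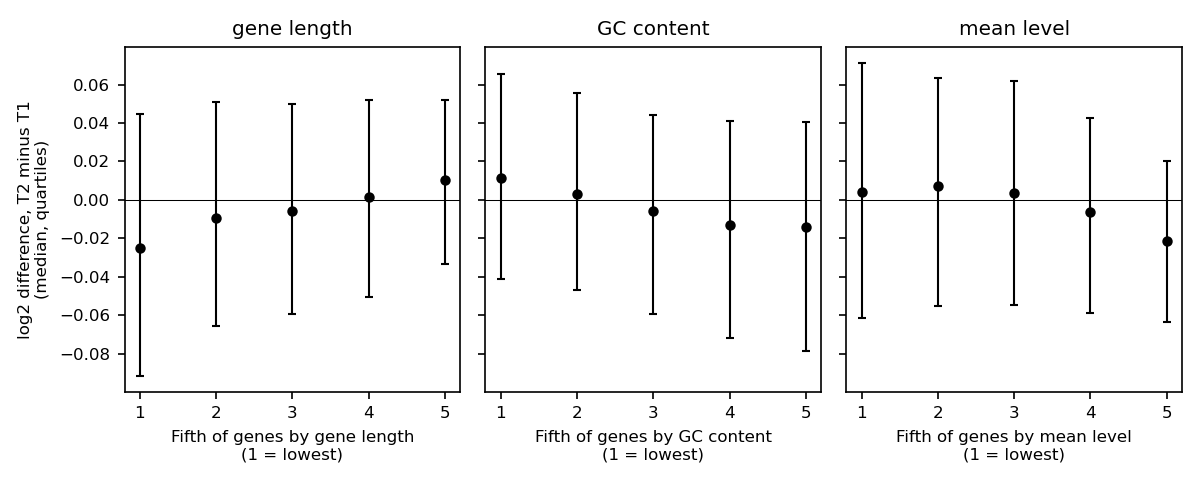
Median (points) and quartiles (bars) of the log2 difference, T2 minus T1 (vertical), in quintiles of the genes past the filter by gene length, GC content and mean level (horizontal, 1 is the lowest quintile). The medians run from -0.03 to 0.01 from short to long genes and stay well inside the quartiles.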

How the data were processed

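RNA was measured in 3 libraries of RAW264.7 cells. Per the labels' protocols, a SMARTer mRNA kit was applied to total RNA. The values are FPKM as the authors deposited them, in 1 column per library. GRCm38 and mm10, 2 names of a single assembly, are listed in the submitters' processing notes. Not given in the sources used here are the aligner, the counter, its use of strand and its handling of reads with several positions. Columns T1 and T2 could not be tied to hours, and 0 per-sample columns were left unused. Time in culture may differ along with TSH.

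FPKM times gene length, which the authors deposited in bases, gave whole reads within 0.01 for 100% of values. With 1 library a column no count test was run. Differences are of log2(FPKM + 1), with a pseudocount of 1. Ratios are of FPKM without it, with 95% intervals that are exact and conditional on the summed reads (Clopper-Pearson). They cover counting error only, since there was 1 library a column. PCR copies are not independent molecules, so the intervals may be too narrow even for that. Low values were filtered at a mean of 5 FPKM.

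The members and the 40 gene lists (598 symbols, all found) were chosen with earlier results of these data known. Genes named were the 15 largest on each side with at least 100 reads and no near-identical copy, the 5 largest on each side with one, up to 4 per list, and a fixed set of osteoclast, TSH receptor and AMPK genes; others were chosen after their values were seen. Copies were sought with BLAST+ 2.17.0 (95% identity over 100 bases and 50% of the shorter transcript) in GENCODE release M21 transcripts. Genes with copies, and those overlapping others, are uncertain. Promoters are RefSeq windows on GRCm38.p6, matched by symbol for 5416 of the 6746 genes. The code was tested on simulated data. Alternatives were other pseudocounts, filters, scalings, a fold of 1.5, all biotypes, the mean of members, and copied genes left out. Software versions were numpy 2.4.6, pandas 2.3.3, scipy 1.17.1 and matplotlib 3.10.9 under Python 3.11.15.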

Additional observations from a re-analysis of the deposited data

How the results depend on the processing

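The 29 higher and 30 lower genes became 11 and 13 with a pseudocount of 5, 76 and 72 with a filter at 1 FPKM, 8 and 11 with one at 20 FPKM, and 117 and 91 without a filter, which also adds genes of few reads. They were 19 and 17 without copied genes, 3 and 5 at a fold of 1.5, and 54 and 77 over all biotypes. With T1 and T2 rescaled to the same FPKM total 45 were higher. Without genes that overlap others, an alternative chosen after seeing the data, 17 were lower. Rescaling to the same total moved the medians of ER chaperones to -0.021, osteoclast signalling to 0.00633, osteoclast resorption to 0.036, lysosomal proteins to 0.050, S phase to -0.010 and ribosomal proteins to -0.0016. The resorption median was -0.020 without a filter and -0.035 without overlapping genes, and the ribosomal mean was 0.029. Among 383 list values over all alternatives 357 stayed within the 95% counting error of the list median. Named genes gave 1788 values. Of these, 31 fell under the size rule and 5 newly passed it, and 0 reversed among genes past the rule. Changes of sign in named genes under the size rule were not counted. Of the 30 largest genes 7 passed under every alternative that gave them a value, apart from the fold of 1.5, which was run for the counts alone: Trib3, Ifi27l2a, Selenow, Ier3, Gla, Ddt and Dpm3. A pseudocount of 5 lost 23 of the 30. Removal of length and GC trends, also chosen after seeing the data, lost 3. No replicate could be left out, and no paired analysis was possible because each hour of TSH has 1 library. Depth limits the low genes most, since the lowest quintile by reads has a median counting SD of 0.09.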

Other observations

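Below the filter, 2751 protein-coding genes had a mean from 1 to 5 FPKM. By the same size rule 47 of them (1.71%) were higher and 42 (1.53%) lower in T2, and 31 and 31 of these had at least 100 reads and no near-identical copy. The genes named here were chosen after their values were seen. Among the 31 and 31, the largest difference was that of Gm10800, on the lower side, at -2.34. Gm10800 was at 8.85 FPKM from 98 reads in T1, 0.951 FPKM from 11 reads in T2 and 0.376 FPKM in RANKL alone. F3, the gene of tissue factor, which starts blood clotting, was at 0.897 FPKM from 38 reads in T1, 1.67 FPKM from 74 reads in T2 and 1.77 FPKM in RANKL alone, a ratio of 1.86 (95% counting interval 1.24 to 2.83). Coq10b, a coenzyme Q binding protein gene, was at 2.09, 3.30 and 3.29 FPKM in the same order, a ratio of 1.58 (1.30 to 1.93), and it overlaps an antisense gene.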
